A study of Drosophila melanogaster with 15 samples.

Results

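The odorant-binding protein genes of Drosophila melanogaster were examined in whole adult males with and without ionizing radiation. Members were the genes whose symbol begins with Obp and a digit and that had at least 1 probe set, the array's set of short probes for a transcript, annotated with that symbol alone. This gave 47 genes of the 11982 genes represented in this way. Where a gene had several such probe sets, the one with the highest mean over all 15 arrays was used. The family genes Obp50b, Obp50c, Obp57d and Obp83a have no such probe set and were not analysed here. The gene lush, which encodes a related binding protein, falls outside the naming rule and was used only as an antennal marker.

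Odorant-binding proteins are small soluble proteins that are secreted at high concentration and bind hydrophobic molecules. In the antenna, support cells release them into the fluid of the olfactory hairs, where they surround the dendrites of the receptor neurons. Other members are made by the taste hairs of the proboscis and legs, by the fat body, the fly's counterpart of liver and adipose tissue, or by glands of the male reproductive tract, whose products pass to the female with the seminal fluid. The members were therefore described by the tissue in which each is usually found. These tissue lists were chosen with earlier results of these data known.

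The data came from 15 Affymetrix 3' expression arrays, each hybridized with RNA from a pool of whole bodies of 25 males aged 3 days. The untreated groups were control flies (n = 4 biological replicates) and 4 transgenic lines that carry Dsup, a tardigrade gene for a nucleosome-binding protein (n = 4, 1 array per line). The irradiated groups received 1000 Gy of ionizing radiation and were control flies (n = 3) and the same Dsup lines (n = 4). Not given in the sources used here were the genotype of the control stock, the promoter or driver of the transgene and the time from irradiation to RNA isolation. The labels name no separate control stocks, so an effect of Dsup and one of genetic background cannot be told apart. In extracts of whole bodies, fewer cells of a type and less RNA per cell cannot be told apart.

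Levels are log2 values after quantile normalization of the 15 arrays, so a difference of 1 is a 2-fold change. A member was called at an adjusted p below 0.05 in limma's moderated test, adjusted over all 18769 probe sets tested. The table gives no detection calls, and 19 of the 47 members had a mean below the 40th percentile of all probe sets, which lay at 3.35. The yolk protein genes of females, Yp1 and Yp2, had group means of 1.65 to 2.38 and Yp3 of 4.57 to 4.98, with 0 of the 3 called after radiation in control flies (limma, 1 at an unadjusted p below 0.05). As deposited, array means within a group were nearly equal (SD 0.00359 to 0.0113), while group means ran from 4.04 to 4.87. Pairs of irradiated control arrays held between 6814 and 7744 identical deposited values of 18952, which by themselves lower the pooled spread. Among the members, 24 had at least 1 such pair, and Obp18a, Obp19c, Obp46a, Obp56b, Obp57a, Obp59a, Obp73a, Obp85a and Obp93a had the same value in all 3 arrays. Identical deposited values also occurred in Dsup arrays, as for Obp73a in all 4 untreated lines, and were not counted there.

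Dsup line 3 stood apart from the other lines in several antennal genes. The mean log2 level of the 6 measured antennal members was 3.24 in the untreated array of line 3, against 5.22 to 5.50 in the other 3 untreated lines. After radiation it was 3.86 in line 3 and 2.28 to 2.66 in the others. The antennal genes lush, Os-C, a5, a10 and the co-receptor gene Orco, all outside the naming rule, had means of 4.00 and 4.23 in line 3. In the other lines the same 5 genes had means of 5.86 to 6.22 without and 2.70 to 3.15 with radiation. These 5 had the largest falls in control flies of the 27 other antennal olfactory genes measured. Not every antennal gene set line 3 apart. Without radiation Ir25a was at 2.88 in line 3 (2.66 to 3.09 in the others) and Ir64a at 2.94 (2.90 to 3.05). Obp19d, found in antenna and taste organs, was at 9.67 (9.44 to 10.03). Corp and CG7142, a pair of genes with radiation responses in both genotypes, followed the labels in line 3. Corp was at 3.34 in its untreated and 4.80 in its irradiated array, and CG7142 at 4.13 and 6.33. For each member called in a comparison of Dsup lines, and for the antennal members and Obp99b, the value or its range is therefore given with and without both arrays of line 3, a choice made after seeing these values. Other Dsup values include line 3 unless stated.

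**Figure D1:**
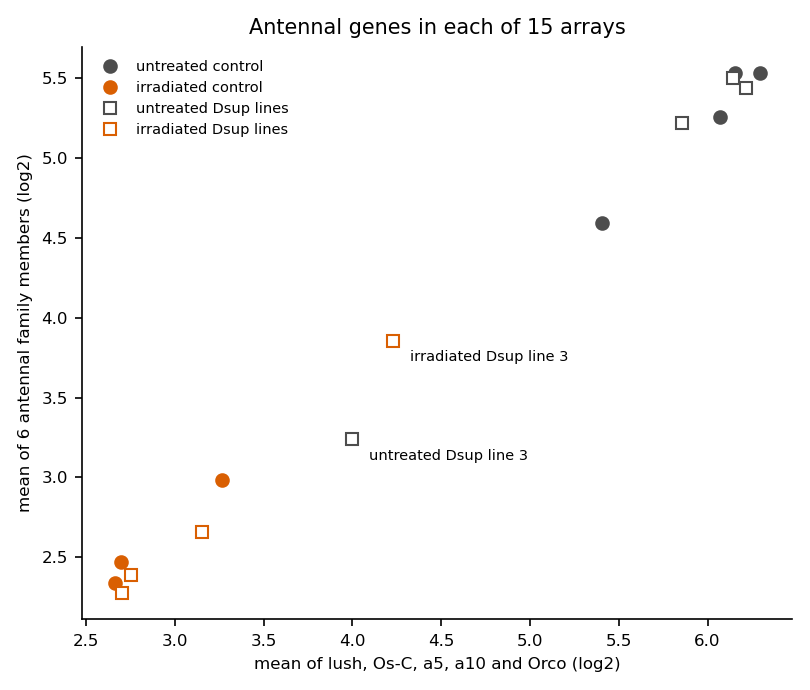
Mean log2 level of the 6 measured antennal family members (vertical axis) against that of lush, Os-C, a5, a10 and Orco (horizontal axis), each point 1 of the 15 arrays. Arrays of irradiated flies lie at the lower left and of untreated flies at the upper right, and both arrays of Dsup line 3 lie between them.

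All 6 measured antennal members fell after 1000 Gy in control flies and in Dsup lines, and these were the largest falls in the family. In control flies 21 of the 47 members were called (34% of all probe sets were called), 15 of them higher and 6 lower (16.9% and 17.1% of all probe sets). The 6 that fell were the measured members of the antennal list, which was chosen with earlier results of these data known. A change of at least 2-fold was called in 8 members, against 4.23% of all probe sets. The values of irradiated and untreated controls did not overlap in 29 members, against 47.9% of all probe sets. In Dsup lines 14 members were called (21.3% of all probe sets), 6 higher and 8 lower (10.7% and 10.6%), and 6 changed at least 2-fold (1.17%). Without line 3 the Dsup counts were 7 higher and 8 lower, with Obp50e no longer called and Obp56c (-0.38 ± 0.12) and Obp99b called in addition. The number called higher depended on the scaling. With median centring of each array it was 19 in control flies and 12 in Dsup lines, beside 6 and 7 called lower. On the deposited scale, where the all-probe-set medians were 0.23 and 0.47, it was 25 and 31, beside 6 and 5 called lower. All 21 members called in control flies kept their call on both scales. A covariate for RNA integrity and labelling was the mean 3' minus 5' difference of the actin and GAPDH control probe sets. With it, only 8 of the 21 kept the call, 5 higher and 3 lower. This covariate was higher in every irradiated than in every untreated array, in control flies and in Dsup lines. It therefore cannot be told apart from radiation in either genotype.

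**Figure D2:**
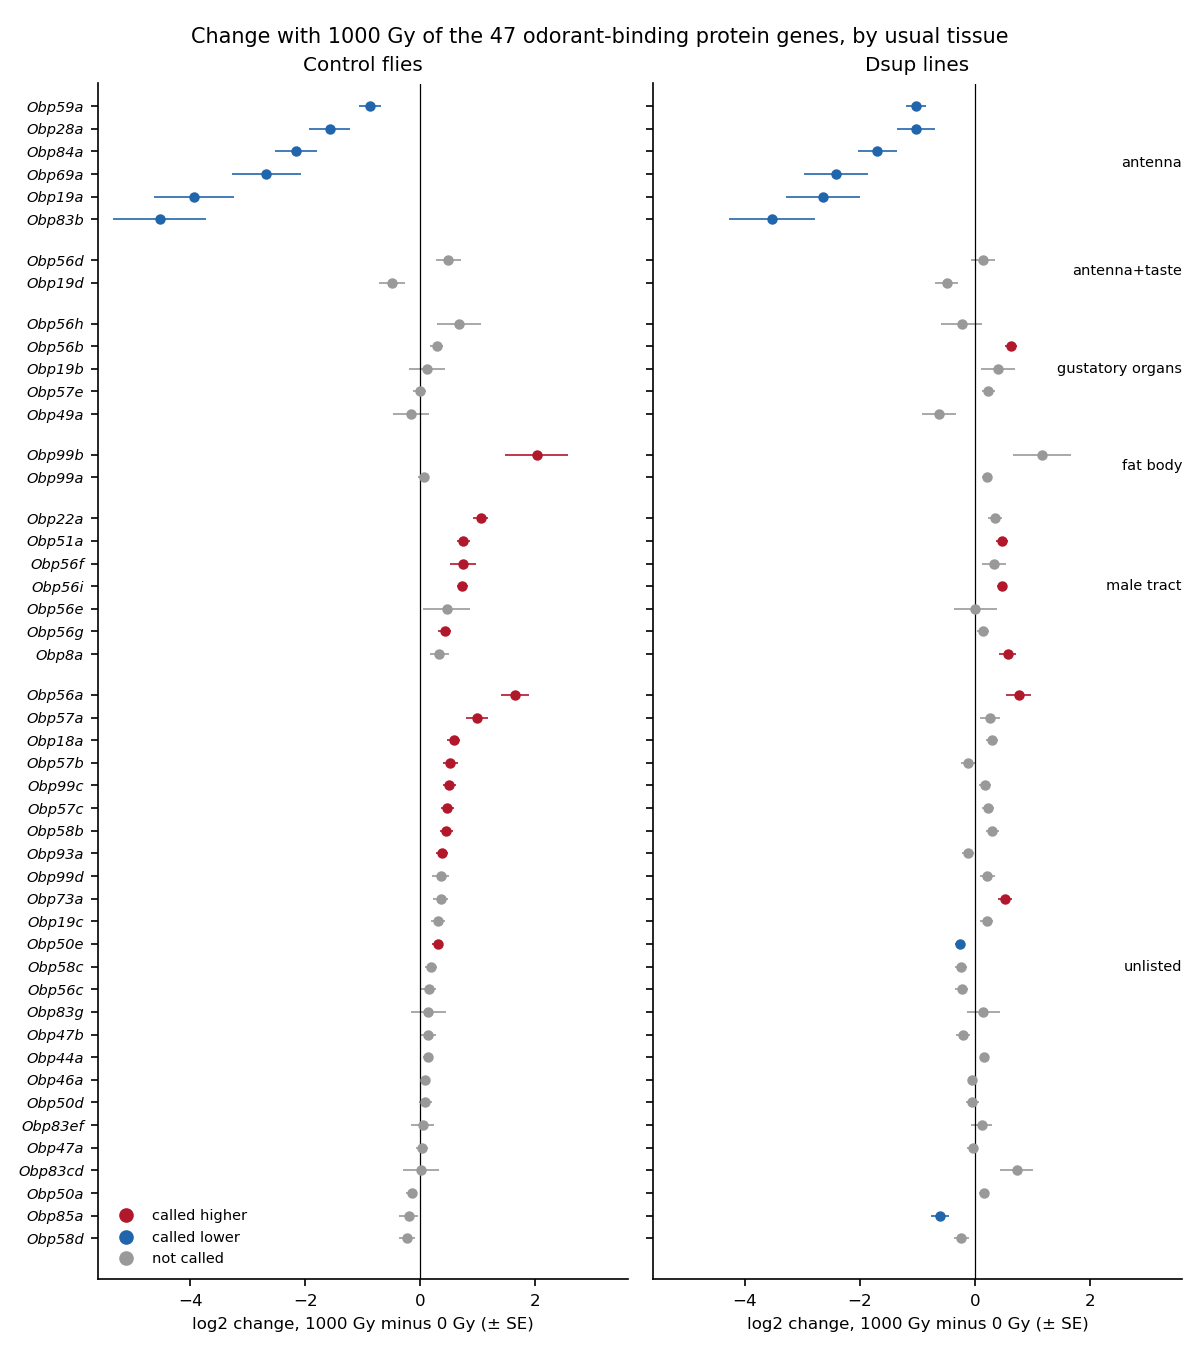
Log2 change with 1000 Gy (horizontal axis, ± SE from the limma fit) of each of the 47 members (rows) in control flies (left, n = 4 untreated and 3 irradiated) and Dsup lines (right, n = 4 and 4), grouped by usual tissue. Colours mark members called higher, called lower and not called, and the 6 antennal members are lower in both panels.

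Obp83b encodes OS-E, a protein of the fluid of antennal olfactory hairs. Its log2 levels were 6.35, 7.57, 7.85 and 7.78 in the untreated controls and 3.88, 2.54 and 2.14 in the irradiated controls. The untreated Dsup lines 1 to 4 had 7.24, 7.84, 4.33 and 7.61, and the irradiated lines had 2.78, 2.69, 5.22 and 2.24. The control groups did not overlap, and lines 1, 2 and 4 lay in the same ranges as the controls. In control flies Obp83b fell by 4.53 ± 0.81 (log2 change ± SE), a 23.1-fold difference (limma adjusted p = 0.000628). In Dsup lines it fell by 3.52 ± 0.75 (limma adjusted p = 0.00429), and by 5.0 ± 0.43 without line 3.

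Obp19a, a gene of the antenna on the X chromosome, had levels of 5.19, 5.85, 6.17 and 6.36 in untreated and 2.57, 1.69 and 1.62 in irradiated controls. In Dsup lines 1 to 4 the levels were 5.54, 6.48, 2.79 and 6.17 before and 2.55, 2.18, 3.88 and 1.80 after radiation. As for Obp83b, the line 3 arrays were the exception in each Dsup group. Obp19a fell by 3.94 ± 0.69 in control flies, a 15.3-fold difference (limma adjusted p = 0.000585), and by 2.64 ± 0.64 in Dsup lines (limma adjusted p = 0.00955). Without line 3 the fall in Dsup lines was 3.88 ± 0.33. A second Obp19a probe set, not used for the member, fell as well, by 2.39 ± 0.53 in control flies and 1.91 ± 0.49 in Dsup lines.

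Obp69a, known as an antennal binding protein that takes part in the behavioural response to a male pheromone, had levels of 5.0, 6.15, 6.50 and 6.33 in untreated controls. The irradiated controls had 3.70, 3.29 and 2.96. In Dsup lines 1 to 4 they were 6.37, 6.16, 3.89 and 6.44 without and 3.08, 2.60, 4.76 and 2.79 with radiation. The control arrays did not overlap, and untreated control 1 was the lowest of its group, as it was for Obp83b and Obp19a. Obp69a fell by 2.68 ± 0.60 in control flies (limma adjusted p = 0.00309) and by 2.41 ± 0.55 in Dsup lines (limma adjusted p = 0.00679), or 3.50 ± 0.31 without line 3.

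Obp84a, an antennal gene first found as a pheromone-binding protein relative, had levels of 3.64, 4.29, 4.38 and 4.63 in untreated and 2.11, 2.04 and 2.06 in irradiated controls. Dsup lines 1 to 4 had 4.20, 4.51, 2.68 and 4.25 before and 2.12, 1.97, 2.90 and 1.86 after radiation. The control groups did not overlap, and all irradiated values lay below the 40th percentile of probe set means. Obp84a fell by 2.16 ± 0.36 in control flies (limma adjusted p = 0.000384) and by 1.70 ± 0.33 in Dsup lines (limma adjusted p = 0.00268), or 2.33 ± 0.19 without line 3.

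Obp28a is an abundant antennal member whose product has been studied as an odorant carrier and buffer. It had levels of 4.88, 4.88, 5.26 and 5.34 in untreated and 3.76, 3.39 and 3.37 in irradiated controls. Dsup lines 1 to 4 had 5.16, 4.84, 3.30 and 5.23 without and 3.67, 3.37, 4.07 and 3.30 with radiation. The control arrays did not overlap. Obp28a fell by 1.58 ± 0.35 in control flies (limma adjusted p = 0.00314) and by 1.03 ± 0.33 in Dsup lines (limma adjusted p = 0.0363). The Dsup call was lost with the line as a replicate block (adjusted p = 0.0822), with the deposited scale, and without the untreated or the irradiated array of line 1, 2 or 4, when the fall was 0.83 to 1.05. Without both arrays of line 3 it was called, with a fall of 1.63 ± 0.16.

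Obp59a, a gene of the humidity-sensing hairs of the antenna, was the dimmest antennal member. Its levels were 2.47, 2.80, 3.03 and 2.73 in untreated controls and 1.89, 1.87 and 1.87 in irradiated controls. Dsup lines 1 to 4 had 2.80, 2.79, 2.45 and 3.30 before and 1.73, 1.54, 2.30 and 1.66 after radiation. Here every irradiated line was below every untreated line, line 3 included. The fall was 0.88 ± 0.19 in control flies (limma adjusted p = 0.00275) and 1.02 ± 0.18 in Dsup lines (limma adjusted p = 0.00119), or 1.32 ± 0.15 without line 3. A second Obp59a probe set, at a mean level of 1.01, differed by -0.11 and 0.09 and was not called.

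**Figure D3:**
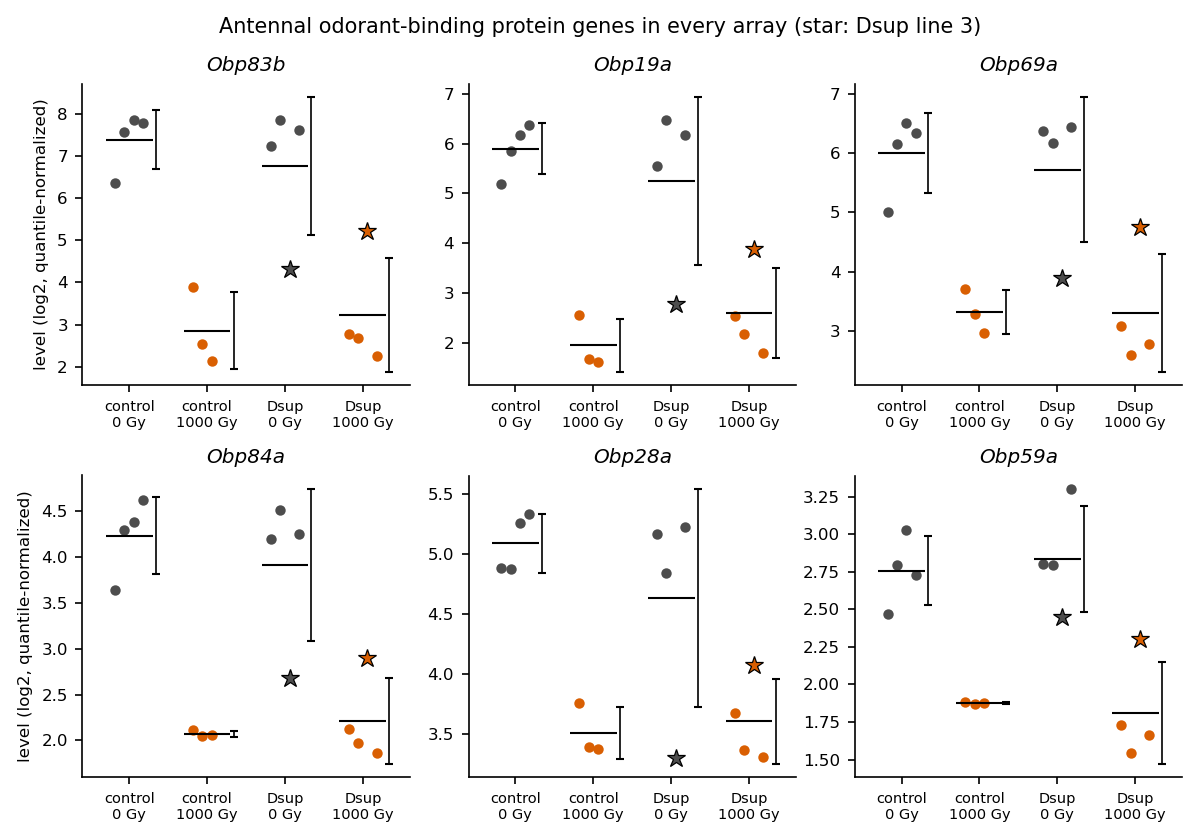
Log2 level (vertical axes) of the 6 antennal members in each array, by group, with the group mean (horizontal line) and SD (bar); stars mark Dsup line 3. In lines 1, 2 and 4 every gene was lower after 1000 Gy, while line 3 was low without radiation and the highest irradiated line.

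Within each Dsup line, Obp83b differed between the irradiated and the untreated array by -4.46, -5.16, 0.90 and -5.37 in lines 1 to 4. The corresponding differences were -2.99, -4.30, 1.09 and -4.37 for Obp19a and -3.29, -3.56, 0.87 and -3.66 for Obp69a. For Obp84a they were -2.08, -2.54, 0.21 and -2.38, and for Obp28a -1.49, -1.48, 0.78 and -1.93. Lines 1, 2 and 4 thus had lower values after radiation for these genes, and line 3 had higher ones. The interaction, which is the change in Dsup lines minus that in control flies, was not called for any antennal member (0 of 6, limma, and 0 at an unadjusted p below 0.05). Its values were 1.01 for Obp83b and 1.29 for Obp19a with all lines, and -0.46 ± 0.59 and 0.05 ± 0.46 without line 3, so that of Obp83b changed sign. Without line 3 the other 4 ran from -0.82 ± 0.43 for Obp69a to -0.050 ± 0.22 for Obp28a, and again none of the 6 was called.

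Some antennal genes outside the naming rule also fell in irradiated control flies. The odorant receptor co-receptor gene Orco, of olfactory neurons, was at 4.33 in untreated and 2.31 in irradiated controls. The binding protein gene lush, required for the response to a male pheromone, was at 4.76 and 2.16. The olfactory-specific genes Os-C and a5 were at 7.12 and 3.58 and at 6.45 and 2.58. With a10, these had the largest falls in control flies of the 27 other antennal olfactory genes measured. Of the 27, 12 fell and 4 rose in control flies (median -0.22), and 9 fell and 3 rose in Dsup lines (median -0.09). Of 10 general neuronal genes, 5 fell in control flies, with a median of -0.42, and 4 fell in Dsup lines. The actin 3' minus 5' difference averaged 0.99 in untreated and 1.52 in irradiated controls, and 1.13 and 1.32 in Dsup lines. For GAPDH the averages were 1.0 and 1.31 in controls and 1.12 and 1.34 in Dsup lines. The actin values of the control groups did not overlap (0.70 to 1.30 and 1.38 to 1.67). In Dsup lines the GAPDH values did not overlap (1.03 to 1.19 and 1.25 to 1.43), while the actin values did. The mean of both differences was higher in every irradiated than in every untreated array of each genotype. A call lost or kept with it therefore cannot tell RNA quality from radiation in control flies or in Dsup lines. With the mean of both differences as a covariate, Obp83b, Obp19a and Obp84a were still called lower in control flies. Obp69a (limma adjusted p = 0.0804), Obp28a (adjusted p = 0.0896) and Obp59a (adjusted p = 0.151) were not. In Dsup lines 5 of the 6 were still called, the exception being Obp28a (adjusted p = 0.105).

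The arrays of each group were split into a lower and a higher set by their mean level of the Affymetrix hybridization control probe sets. The cut was the midpoint of the range within the group, so both sets hold all 4 groups by construction. The sets overlap in level, with irradiated control 2 (7.58) in the lower and untreated Dsup line 3 (7.35) in the higher set. The labels give no such division. Within the 2 untreated and 2 irradiated control arrays of the lower set, Obp83b differed by -3.75, Obp19a by -3.40 and Obp59a by -0.76. Within the higher set, with 2 and 1 control arrays, the differences were -5.68, -4.64 and -1.0. Each antennal member was lower after radiation within each set, and 5 of the 6 passed the test in the lower set and 0 in the higher set (limma, with 6 lower members of the family at an unadjusted p below 0.05). In Dsup lines the lower set holds only line 1, with a difference of -4.46 for Obp83b, and the higher set gave -3.21.

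Obp19d and Obp56d are found both in the antenna and in taste organs, and neither was called in either genotype (limma, 1 lower and 1 higher at an unadjusted p below 0.05 in control flies). Obp19d had levels of 9.17, 9.83, 9.67 and 10.07 in untreated and 9.04, 9.04 and 9.50 in irradiated controls. Its differences were -0.49 ± 0.22 in control flies (limma adjusted p = 0.103) and -0.49 ± 0.21 in Dsup lines (limma adjusted p = 0.102). Obp56d had 9.18, 8.84, 8.58 and 8.64 in untreated and 9.21, 9.30 and 9.37 in irradiated controls. It differed by 0.48 ± 0.22 in control flies and 0.14 ± 0.20 in Dsup lines. The control groups overlapped for Obp19d and did not overlap for Obp56d. Dsup lines 1 to 4 had 9.44, 9.78, 9.67 and 10.03 without and 8.90, 9.68, 9.44 and 8.93 with radiation for Obp19d. For Obp56d they had 9.0, 8.84, 9.93 and 9.45 without and 9.75, 9.53, 9.19 and 9.32 with radiation. The Dsup groups overlapped for both genes.

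None of the 5 measured members of the gustatory list was called in control flies (limma, with 1 higher at an unadjusted p below 0.05), and 1 was called in Dsup lines. Their median differences were 0.11 and 0.23, beside -0.01 and 0.01 for all probe sets. Obp49a, a taste hair protein known to act when bitter compounds suppress the response to sugar, had levels of 6.41, 7.55, 6.73 and 7.88 in untreated controls. Irradiated controls had 6.93, 6.61 and 7.41, within the untreated range. Dsup lines 1 to 4 had 7.01, 7.22, 6.85 and 7.88 without and 6.71, 6.77, 6.61 and 6.37 with radiation, with every irradiated line below every untreated one. Obp49a differed by -0.16 ± 0.31 in control flies and -0.63 ± 0.29 in Dsup lines (limma adjusted p = 0.138).

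Obp56h, a gene whose knockdown is known to alter mating behaviour, had levels of 3.27, 4.50, 3.61 and 4.95 in untreated and 4.89, 4.44 and 4.93 in irradiated controls. The groups overlapped, and the differences were 0.67 ± 0.38 in control flies and -0.23 ± 0.36 in Dsup lines. Obp56b was near the bottom of the scale, at 1.43, 1.35, 1.50 and 1.21 in untreated and 2.17, 1.96, 1.87 and 2.0 in irradiated Dsup lines 1 to 4. Its controls had 1.44, 1.41, 1.14 and 1.70 without and 1.72, 1.70 and 1.71 with radiation. It rose in Dsup lines by 0.63 ± 0.10 (limma adjusted p = 0.000887), or 0.71 ± 0.12 without line 3, and in control flies it differed by 0.28 ± 0.11 (limma adjusted p = 0.0643). Obp19b had 5.17, 5.68, 5.96 and 6.26 in untreated and 5.68, 6.59, 6.31 and 6.10 in irradiated Dsup lines, which overlapped. Obp19b and Obp57e differed by 0.11 and -0.02 in control flies and by 0.40 and 0.23 in Dsup lines. Of 16 taste receptor and related genes measured, 4 rose and 1 fell in control flies (median 0.00) and 3 rose and 2 fell in Dsup lines (median 0.14).

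Of the 2 members usually found in the fat body, Obp99b rose in irradiated control flies and Obp99a did not pass the test. Obp99b, a gene with male-biased expression in the fat body of the head, had levels of 7.25, 5.46, 6.96 and 7.47 in untreated controls. In irradiated controls it had 8.58, 8.87 and 8.95, all above the untreated arrays. Untreated Dsup lines 1 to 4 had 8.60, 7.43, 9.87 and 7.41, and irradiated ones 9.07, 9.10, 9.53 and 10.28. Line 3 was the highest untreated array and overlapped the irradiated ones.

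In control flies Obp99b rose by 2.02 ± 0.55, a 4.05-fold difference (limma adjusted p = 0.0105). In Dsup lines the difference was 1.17 ± 0.51 (limma adjusted p = 0.113), and without line 3 it was called, at 1.68 ± 0.48 (adjusted p = 0.0299). The control call was lost with the 3' minus 5' covariate (adjusted p = 0.332), and the values within the lower and higher hybridization control sets were 2.37 and 1.74. Obp99a had 8.65, 8.43, 8.54 and 8.55 in untreated and 8.47, 8.64 and 8.69 in irradiated controls, a difference of 0.06 ± 0.09. In Dsup lines 1 to 4 it had 8.60, 8.25, 8.49 and 8.59 without and 8.76, 8.66, 8.63 and 8.72 with radiation, and differed by 0.21 ± 0.09 (limma adjusted p = 0.0957).

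Genes of the fat body outside the family varied in the same arrays. Of 11 measured, 4 rose and 1 fell in irradiated controls, with a median of 0.74. In Dsup lines 1 rose and 1 fell, with a median of 0.38. The secreted protein gene fit was at 1.88 in untreated controls, 4.22 in untreated Dsup lines, 5.37 in irradiated controls and 5.22 in irradiated Dsup lines. Like Obp99b, fit was highest among untreated arrays in Dsup line 3, at 6.52. The storage protein gene Lsp2 averaged 7.40, 9.26, 9.55 and 9.64 in these groups. In control flies fit and Lsp2 had the largest rises of the 11. The gene bmm, the 1 that fell there, averaged 9.59, 9.04, 7.98 and 8.24 in the same order. The part of these genes in the Obp99b result was not tested.

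Of the 7 members made in the male reproductive tract, 5 rose in irradiated control flies and 3 in irradiated Dsup lines, and 0 fell (limma, 0 lower at an unadjusted p below 0.05 in either). Of all probe sets, 16.9% and 10.7% were called higher in these comparisons. With the 3' minus 5' covariate 3 of the 5 control calls remained, and those of Obp56f (adjusted p = 0.2) and Obp56g (adjusted p = 0.112) were lost. Their median change without the covariate was 0.73 in control flies and 0.34 in Dsup lines. All are known as genes for seminal fluid proteins or for glands of the male tract. Obp22a had levels of 6.45, 6.32, 6.28 and 6.12 in untreated and 7.43, 7.48 and 7.11 in irradiated controls. Untreated Dsup lines 1 to 4 had 7.02, 6.73, 6.93 and 6.44, all below the irradiated controls, and irradiated lines had 7.21, 7.23, 7.08 and 6.97. Obp22a rose by 1.05 ± 0.13 in control flies, a 2.07-fold difference (limma adjusted p = 4.7e-05), and differed by 0.34 ± 0.12 in Dsup lines (limma adjusted p = 0.0607), or 0.41 ± 0.15 without line 3 (adjusted p = 0.0724). With the line as a replicate block, the Dsup value was called (adjusted p = 0.0373).

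Obp51a had levels of 9.19, 9.27, 9.22 and 9.21 in untreated and 10.04, 9.89 and 9.96 in irradiated controls. Untreated Dsup lines had 9.90, 9.43, 9.36 and 9.41 and irradiated lines 10.02, 10.04, 10.04 and 9.87. The control groups did not overlap, and among Dsup lines only line 1 without radiation reached the irradiated range. Obp51a rose by 0.75 ± 0.11 in control flies (limma adjusted p = 0.000137) and by 0.47 ± 0.10 in Dsup lines (limma adjusted p = 0.00498), or 0.39 ± 0.12 without line 3.

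Obp56i, with levels of 5.93, 5.97, 5.68 and 5.87 in untreated and 6.66, 6.62 and 6.48 in irradiated controls, rose by 0.73 ± 0.10 (limma adjusted p = 6e-05). In Dsup lines 1 to 4 it went from 6.13, 6.02, 5.83 and 5.95 to 6.57, 6.51, 6.33 and 6.39, and rose by 0.47 ± 0.09 (limma adjusted p = 0.00208), or 0.45 ± 0.10 without line 3. Every irradiated array of Obp56i was above every untreated array of the study. Obp56f had levels of 6.86, 7.01, 7.13 and 6.26 in untreated and 7.67, 7.71 and 7.29 in irradiated controls. It rose by 0.74 ± 0.22 in control flies, a call that ended without irradiated control 1 or 2, at 0.68 and 0.66, and differed by 0.34 ± 0.21 in Dsup lines.

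Obp8a rose in Dsup lines, from 4.32, 4.52, 4.94 and 4.81 to 5.15, 5.56, 5.20 and 4.96 in lines 1 to 4 (0.57 ± 0.15, limma adjusted p = 0.0146). Without line 3 the rise was 0.67 ± 0.17. In control flies it differed by 0.33 ± 0.16 (limma adjusted p = 0.135). Obp56g, among the brightest probe sets of the array, rose by 0.42 in control flies and differed by 0.14 in Dsup lines. Obp56e differed by 0.45 ± 0.40 and 0.01 ± 0.37, and its untreated controls alone ranged from 6.12 to 7.61.

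Most measured genes of the same organs outside the family also rose in control flies, and fewer did in Dsup lines. Of 29 accessory gland genes measured, 20 rose in control flies (median 0.61) and 9 in Dsup lines (median 0.30), and 0 fell in either (limma, 0 lower at an unadjusted p below 0.05). All 4 measured ejaculatory bulb and duct genes rose in control flies (median 0.45), and 0 were called in Dsup lines, also at an unadjusted p below 0.05 (median 0.04). The per-array mean of the 7 male tract members was 7.06 to 7.53 in untreated and 7.90 to 8.03 in irradiated controls. For the accessory gland genes it was 7.90 to 8.43 and 8.85 to 8.87. In Dsup lines the male tract members had 7.40 to 7.88 without and 7.82 to 8.01 with radiation. Untreated control 4 had the lowest mean of both lists.

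The other 25 members were placed in no tissue list. Of these, 9 rose in control flies and 0 fell (limma, 0 lower at an unadjusted p below 0.05), while in Dsup lines 2 rose and 2 fell. Obp56a changed most. Its levels were 6.61, 6.09, 5.96 and 6.39 in untreated and 7.81, 7.77 and 8.14 in irradiated controls, with no overlap. Dsup lines 1 to 4 had 7.08, 6.39, 7.53 and 6.57 without and 7.58, 8.08, 7.64 and 7.32 with radiation, and the untreated array of line 3 reached the irradiated range.

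Obp56a rose by 1.64 ± 0.24 in control flies, a 3.13-fold difference (limma adjusted p = 0.000143). In Dsup lines it rose by 0.76 ± 0.22 (limma adjusted p = 0.0263), which was not called with the line as a replicate block (adjusted p = 0.0515), with the 3' minus 5' covariate, or without untreated Dsup line 2 or 4 or irradiated Dsup line 2 or 3. Without both arrays of line 3 the value was 0.97 ± 0.22. Within the lower and higher hybridization control sets the control difference was 1.44 and 1.97.

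The remaining 8 that rose in control flies were Obp57a (0.99 ± 0.19), Obp18a (0.58), Obp57b (0.52), Obp99c (0.50), Obp57c (0.47), Obp58b (0.45), Obp93a (0.38) and Obp50e (0.30). With the 3' minus 5' covariate the call of Obp18a remained (0.65, adjusted p = 0.0491), and those of the other 7 were lost, with values of 0.14 (Obp93a) to 0.64 (Obp57b) and adjusted p of 0.0537 (Obp99c) to 0.652 (Obp93a). In Dsup lines Obp73a rose by 0.52 ± 0.12, Obp85a fell by 0.61 ± 0.15 and Obp50e fell by 0.26 ± 0.09. The deposited value was the same in all 4 untreated lines for Obp73a and in irradiated lines 1 and 4 for Obp85a. Without line 3 Obp73a rose by 0.58 ± 0.14, Obp85a fell by 0.58 ± 0.19, and Obp50e differed by -0.31 ± 0.10 (adjusted p = 0.0503). The Obp85a call was lost with the covariate and on the deposited scale. Obp50e is a dim probe set, with a mean at the 16.2 percentile of all probe sets. Its Dsup call was lost without any of 12 of the 15 arrays, left out in turn, with values of -0.28 to -0.19, and on the deposited scale it differed by 0.20. Its control call ended without irradiated control 1 or 2, at 0.27 and 0.28, and with the replicate block. The 16 unlisted members that did not pass the test in control flies ranged from -0.23 to 0.36. Among them was Obp44a, at the 99.1 percentile of all probe sets, with control levels of 11.03, 10.87, 10.94 and 10.90 untreated and 11.08, 11.05 and 11.04 irradiated.

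**Figure D4:**
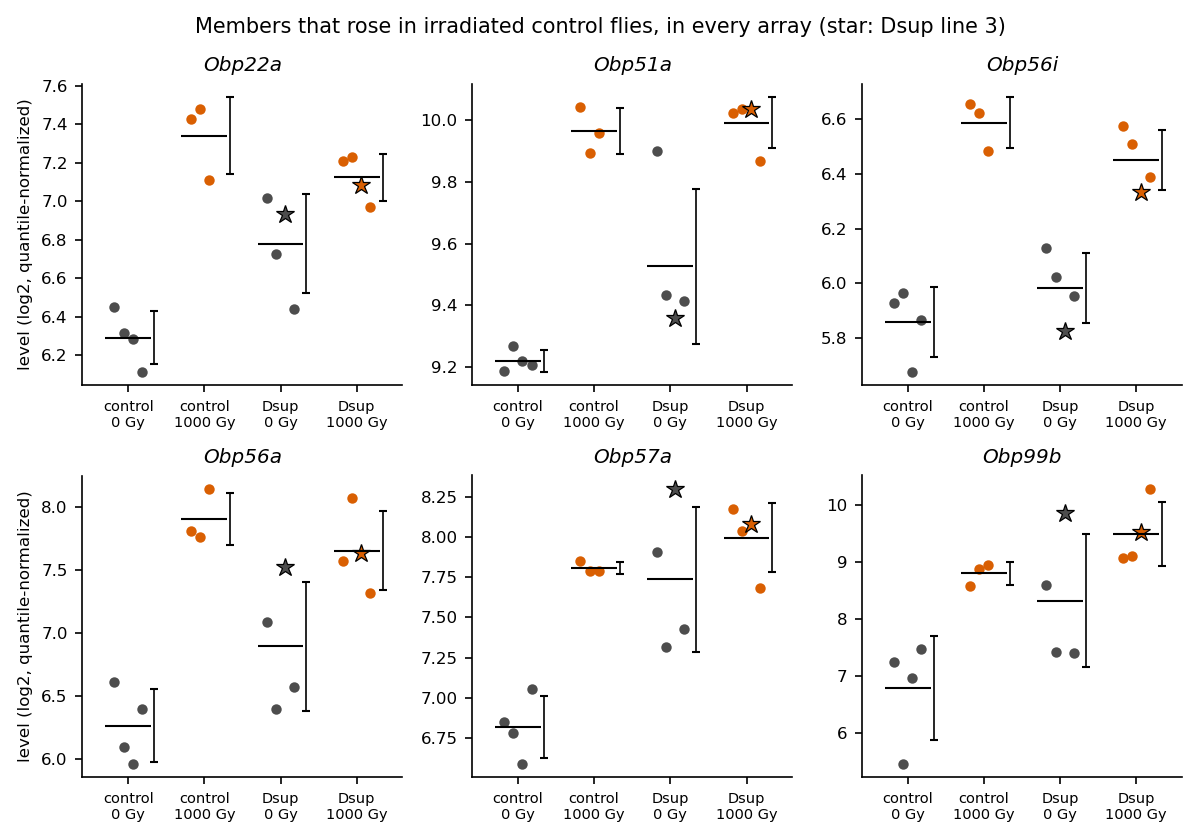
Log2 level (vertical axes) of 3 male tract members (Obp22a, Obp51a, Obp56i), of Obp56a and Obp57a, and of the fat body member Obp99b in each array, by group, with the group mean (horizontal line) and SD (bar). Stars mark Dsup line 3, and irradiated controls lie above untreated controls in all 6 panels.

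Without radiation, 7 members were called higher in Dsup lines than in control flies (5.42% of all probe sets were called higher), and 0 were called lower (5.25% of all probe sets). At an unadjusted p below 0.05 limma gave 16 higher and 0 lower. This direction depended on the scaling, since on the deposited values, which carried a shift of -0.61 in the median probe set, 24 members were called lower and 0 higher. With median centring 13 were higher and 0 lower. Changes below are relative to the other probe sets after quantile normalization.

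Obp57a differed most among the called members. Its untreated controls had 6.85, 6.78, 6.59 and 7.05, and untreated Dsup lines 1 to 4 had 7.90, 7.31, 8.30 and 7.43, all above the controls. After radiation the controls, identical as deposited, had 7.85, 7.79 and 7.78, and the lines had 8.17, 8.04, 8.08 and 7.68. Obp57a was higher by 0.92 ± 0.18 in untreated Dsup lines (limma adjusted p = 0.00592), and by 0.73 ± 0.15 without line 3 (adjusted p = 0.0165).

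Its neighbours Obp57b and Obp57c were higher in untreated Dsup lines by 0.47 ± 0.12 and 0.42 ± 0.10. The others were Obp22a (0.49), Obp99d (0.47), Obp93a (0.40) and Obp47a (0.34). Obp99d, Obp93a and Obp47a are dim, with mean levels of 2.24, 2.06 and 1.76, below the 40th percentile of all probe sets. With dim probe sets removed, Obp57a kept its call and Obp22a, Obp57b and Obp57c lost theirs. Without both arrays of line 3 the calls of Obp57a and Obp93a (0.42) were kept and those of the other 5 were lost, at 0.33 (Obp47a) to 0.48 (Obp99d). With the arrays left out singly, only Obp57a kept its call throughout. Obp22a and Obp57b lost it without untreated control 4 or untreated Dsup line 1 or 3, at 0.41 to 0.44 and 0.38 to 0.44. Obp57c lost it without untreated control 2 or untreated Dsup line 3 (0.38 and 0.35), and Obp93a without untreated control 1 or 2 or untreated Dsup line 4 (0.36, 0.37 and 0.33). Obp47a lost it without untreated control 1 or 3 or untreated Dsup line 2 or 3 (0.27 to 0.33), and Obp99d without any of 11 of the 15 arrays (0.40 to 0.51). With the 3' minus 5' covariate the calls of Obp57a and Obp57b were kept and those of the other 5 were lost. Within the lower and higher hybridization control sets 0 members were called, with 13 higher and 2 lower and with 8 higher and 0 lower at an unadjusted p below 0.05 in limma. For Obp57a the values within these sets were 1.09 and 0.86.

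No antennal member was called between untreated Dsup lines and controls (limma, 0 of 6, and 0 at an unadjusted p below 0.05). The differences of Obp83b and Obp19a were -0.63 ± 0.75 and -0.65 ± 0.64 with line 3 and 0.18 ± 0.40 and 0.17 ± 0.31 without it. Obp99b differed by 1.54 ± 0.51 (limma adjusted p = 0.0648), and by 1.03 ± 0.45 without line 3 (adjusted p = 0.202).

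After 1000 Gy, 1 member was called higher in Dsup lines than in control flies and 1 lower, where 5.97% and 6.06% of all probe sets were called in these directions. Obp50a was at 1.84, 1.82 and 1.88 in irradiated controls and 2.18, 2.16, 2.09 and 2.28 in irradiated Dsup lines, a difference of 0.33 ± 0.10 (limma adjusted p = 0.0336). Obp50e was at 1.96, 1.94 and 1.81 and at 1.80, 1.38, 1.59 and 1.59, a difference of -0.32 ± 0.09 (limma adjusted p = 0.0398). Both probe sets lie near the bottom of the scale, and neither was called with the hybridization control set as a block. Without both arrays of line 3 Obp50a differed by 0.36 ± 0.10 (adjusted p = 0.0427) and Obp50e by -0.32 ± 0.10 (adjusted p = 0.0711). Each call was lost without any of the 3 irradiated controls, and also without irradiated Dsup line 1, 2 or 4 for Obp50a (0.30 to 0.35) and 2, 3 or 4 for Obp50e (-0.36 to -0.25). With the array median as reference 6 members were higher and 0 lower, and on the deposited scale 22 were lower and 0 higher, with a shift of -0.39 in the median of all probe sets.

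The change with radiation differed between genotypes for 4 members, all with a lower value in Dsup lines (4.77% of all probe sets were called lower), and 0 were called in the other direction (4.31% of all probe sets). At an unadjusted p below 0.05 limma gave 8 lower and 2 higher. This direction depended on the scaling. On the deposited values, which carried a shift of 0.23 in the median probe set, 1 member was called lower (Obp22a, -0.56) and 3 higher (Obp50a, Obp56b and Obp57e, at 0.53, 0.56 and 0.54). There Obp50e, Obp57b and Obp93a were at -0.32, -0.48 and -0.30 and were not called. With median centring 3 were lower and 0 higher, and the call of Obp93a was lost. After quantile normalization the interaction was -0.70 ± 0.18 for Obp22a (limma adjusted p = 0.0268), -0.64 ± 0.18 for Obp57b (limma adjusted p = 0.0374), -0.56 ± 0.13 for Obp50e (limma adjusted p = 0.0139) and -0.50 ± 0.15 for Obp93a (limma adjusted p = 0.0496). For Obp22a, Obp57b and Obp93a the untreated Dsup lines were already higher than the untreated controls. Obp57b, for example, had 6.91, 6.89, 6.83 and 6.53 in untreated controls and 7.48, 7.37 and 7.08 in irradiated controls. Its Dsup lines had 7.33, 6.97, 7.41 and 7.33 without and 7.11, 7.29, 7.20 and 6.98 with radiation, a range that overlapped. With the replicate block 1 of the 4 interactions was called (Obp22a), and without both arrays of line 3 also 1 (Obp50e, -0.61), with Obp22a at -0.64, Obp57b at -0.60 and Obp93a at -0.45. With the 3' minus 5' covariate 0 were called (limma, 8 lower and 2 higher at an unadjusted p below 0.05). With single arrays left out, Obp50e kept its call throughout. Obp22a lost it without irradiated control 1 or 2 or irradiated Dsup line 3 or 4 (-0.69 to -0.63), Obp57b without any of 10 of the 15 arrays (-0.65 to -0.55) and Obp93a without any of 12 (-0.52 to -0.43).

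In the RefSeq gene order (Release 6), 26 of the 47 members are on arm 2R, 11 on 3R, 6 on X, 2 on 2L and 2 on 3L. Obp19a, Obp19b, Obp19c and Obp19d are direct neighbours on X, and their differences in irradiated control flies were -3.94, 0.11, 0.31 and -0.49, of which only that of Obp19a was called. On 2R Obp59a, Obp58b, Obp58c and Obp58d follow each other directly, with differences of -0.88, 0.45, 0.18 and -0.23. Obp59a was called lower there, Obp58b higher, and Obp58c and Obp58d were not called.

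On 3R, Obp83b was called at -4.53, while the neighbouring run of Obp83cd, Obp83ef and Obp83g, with 6 protein-coding genes between, had 0.01, 0.04 and 0.14 and was not called. The run from Obp56a to Obp56i on 2R holds 9 members, of which Obp56a, Obp56f, Obp56g and Obp56i rose in control flies and none fell. Their differences ran from 0.14 for Obp56c to 1.64 for Obp56a. Obp57c, Obp57b and Obp57a, direct neighbours on 2R, all rose in control flies, at 0.47, 0.52 and 0.99. In Dsup lines the values of these 3 genes were 0.23, -0.12 and 0.26, and none was called. Obp99c, Obp99d and Obp99b, separated by single genes on 3R, had 0.50, 0.36 and 2.02 in control flies, and Obp99d was not called.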

How the data were processed

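Whole-body RNA of adult males was labelled with a 3' in vitro transcription kit, per the labels' protocols. The authors deposited summarised probe set levels, read as log2 from their range; not given in the sources used here were the probe summary, the normalization and centring and the genome build. Deposited array medians ran from 3.86 to 4.76. Precision is set by how many arrays each group has.

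The 15 arrays were quantile-normalized together over 18769 probe sets, leaving out 183 control probe sets. Of these, 13647 carried 1 gene symbol, 402 several and 4720 none. A model with a mean per group was fitted to all arrays with limma 3.58.1 in R 4.3.3, with empirical Bayes moderation, 5 contrasts, two-sided tests and Benjamini-Hochberg adjustment over all probe sets, and tested on simulated data. Other settings were the deposited scale, median centring, removal of dim probe sets, the mean over a gene's probe sets, hybridization control sets as a block or separately, a 3' minus 5' covariate, a replicate block and leaving out arrays.

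Dsup arrays of a line are paired by the labels; correlations of their deviations from group means were -0.01, 0.11, -0.10 and -0.18. Control arrays share only a number. Members and gene lists (antenna, antenna and taste organs, gustatory organs, fat body, male tract, and genes of these tissues, neurons and yolk outside the family) were chosen with earlier results of these data known. Per-array values were given for members called at 2-fold or more in any contrast and for the 3 members of each tissue list with the largest change after radiation, or both where a list has 2. Gene order came from RefSeq, where all 47 members matched. All p-values measure the spread between these arrays.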

Additional observations from a re-analysis of the deposited data

Results flagged for a closer look

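In groups of 4 arrays, 9 of 141 combinations of member and group had an array far from the other 3; chance alone gives about 1 in 20. In Dsup line 3 without radiation, Obp69a was at 3.89 against 6.16 to 6.44 in the other lines and Obp84a at 2.68 against 4.20 to 4.51. Obp73a was at 2.30 there, against 2.40 in the other lines. As deposited, Obp73a had the same value in all 4 untreated Dsup lines (1.995), so this flag is absent on that scale. Obp51a stood at 9.90 in untreated Dsup line 1 (9.36 to 9.43 in the others) and at 9.87 in irradiated Dsup line 4 (10.02 to 10.04). In irradiated Dsup line 2, Obp56e was at 6.38 (7.73 to 7.99 in the others) and Obp83ef at 3.82 (4.26 to 4.29). Obp18a was at 7.20 in untreated control 3 (7.59 to 7.67) and Obp46a at 1.04 in untreated control 2 (1.19 to 1.22).

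The radiation response of 4 members differed between the genotypes by the interaction term, with -0.70 for Obp22a, -0.56 for Obp50e, -0.64 for Obp57b and -0.50 for Obp93a (limma). On the deposited scale only Obp22a of these was called. The causes of these differences were not tested.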

How the results depend on the processing

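The 6 antennal members had lower values after radiation in both genotypes under each setting that tested them (Obp84a and Obp59a were not tested once dim probe sets were removed), while the counts of called members moved with several of them; the causes were not tested unless stated. For radiation in control flies (21 called), 4 were called in the arrays with higher hybridization controls and 8 with the 3' minus 5' covariate. For radiation in Dsup lines (14), the counts were 36 as deposited, 8 with probe sets below the 40th percentile removed (28 members tested), and 0 and 5 in the lower and higher hybridization control arrays. For untreated Dsup lines against control (7), they were 24 as deposited, 13 with median centring, 1 with dim probe sets removed, 0 and 0 in the lower and higher hybridization control arrays, 2 with the covariate and 2 without Dsup line 3. After 1000 Gy (2), they were 22 as deposited, 6 with median centring, 0 with dim probe sets removed, 0 with the hybridization controls as a block, 0 and 0 within their sets, 1 with the covariate and 1 without line 3. For the interaction (4), they were 4 as deposited (3 higher and 1 lower), 0 with dim probe sets removed, 0 and 0 within the sets, 0 with the covariate and 1 without line 3. The sets within Dsup lines hold 1 line or 3, and lone arrays were assumed to vary like the other groups. Beside the counts of 0, limma gave these members at an unadjusted p below 0.05: with dim probe sets removed 1 higher and 1 lower after 1000 Gy and 4 lower in the interaction; with the block 5 higher and 2 lower; in the lower set 7 and 8, 13 and 2, 5 and 2, and 2 and 11 higher and lower in the order above; in the higher set 8 and 0, 0 and 0, and 0 and 1 in the last 3 comparisons.

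With the replicate block, 23 members were called in control flies (16 higher and 7 lower), 13 in Dsup lines and 1 in the interaction. The control numbers pair no arrays by the labels, and their deviations correlated at -0.13, 0.25 and -0.16. Leaving out each array in turn gave 19 to 24, 11 to 17, 2 to 8, 0 to 3 and 1 to 5 called members in the order above. The count of 2 for untreated Dsup lines was that without untreated line 3.

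As deposited, the values of members called after quantile normalization turned sign for Obp50e in irradiated Dsup lines (0.20) and, for untreated Dsup lines against control, for Obp22a (-0.18), Obp47a (-0.11), Obp57b (-0.20), Obp57c (-0.24), Obp93a (-0.070) and Obp99d (-0.0017).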
